A study of Homo sapiens with 12 samples.

Results

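The genes of homologous recombination, the Fanconi pathway and the DNA damage checkpoint were examined in MCF10A cells, immortal cells of normal human breast epithelium that form no tumours, comparing p53 KO clones with WT cells that keep this transcription factor. The set was 42 genes chosen by name from the deposited table of 22324 gene symbols, and all 42 were found and passed the filter on low values that left 12215 genes for testing. RNA-seq was performed on 4 libraries of the p53 KO clone KO313, 4 of the p53 KO clone KO414 and 4 of WT cells, which the methods call biological repeats. Each clone was grown from a single cell after CRISPR-Cas9 editing to remove p53, KO313 with a different pair of guide RNAs from KO414, so that the p53 KO libraries represent 2 clones of 1 line. All cells were grown in the same medium with horse serum, insulin, EGF, hydrocortisone and cholera toxin, and no agent that damages DNA is named in the labels. Levels are in RPKM, which divides the reads of a gene by its length and by the total of the library. A gene was called higher or lower at an adjusted p under 0.05 in limma, a linear model fitted across all genes on log2(RPKM + 0.5).

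Homologous recombination repairs a broken DNA end from an intact copy. The end is cut back to single-stranded DNA, BRCA2 and its partners prepare it for strand exchange, the strand invades the copy, and the joined molecules are taken apart again. The Fanconi proteins detect replication forks stalled at DNA crosslinks, attach ubiquitin to the FANCD2-FANCI clamp and hand the lesion to nucleases and to recombination. ATM and ATR are kinases that sense breaks and single-stranded DNA and act through CHEK2 and CHEK1 to delay the cell cycle. Many of these genes are transcribed mainly as cells prepare for and carry out DNA replication.

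The labels were checked against p53 targets and cell type markers. CDKN1A, the main p53 target that blocks the cell cycle, averaged 30.7 ± 3.87 RPKM in p53 KO cells and 249 ± 19.6 RPKM in WT cells, and MDM2, the ubiquitin ligase of p53, averaged 10.3 ± 1.12 RPKM in p53 KO cells and 37.9 ± 6.19 RPKM in WT cells. All 10 basal epithelial markers were expressed, with summed RPKM of 2141 to 2531 in p53 KO libraries and 2761 to 3229 in WT libraries, whereas immune markers summed to at most 0.0730 RPKM and endothelial markers to at most 0.0359 RPKM in any library. Of 5 fibroblast markers 1 averaged at least 0.5 RPKM, and the 5 summed to 3.25 to 4.05 RPKM in p53 KO libraries and 3.75 to 4.30 RPKM in WT libraries. KO414 replicate 1 stood apart in the set, with the lowest KO414 value in 29 of the 42 genes, and the counts of called genes are also given without it.

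More of these genes were called higher than lower in p53 KO cells, and RAD51C was the only one called lower. Of the 42 genes, 15 were called higher (35.7%, against 15.6% of all genes tested) and 1 was called lower (2.38%, against 14% of all genes tested). The genes called higher were RAD54L, XRCC2, EXO1, FANCE, FANCG, BRCA1, CHEK1, FANCA, MUS81, BLM, FANCI, EME1, FANCD2, ATRIP and FANCL, and the gene called lower was RAD51C. The changes were small. None of the 42 passed both limma and a fold of 2 (1.47% of all genes did), while 20 had an unadjusted p under 0.05 (39.6% of all genes), and the log2 changes ran between -0.61 and 0.43, with a median of 0.12 in the set and 0.01 over all genes tested. The change was above 0 in 32 of the 42 genes and in 6446 of all 12215 genes tested. In bulk RNA a different share of cells in a cell cycle phase and a different amount of RNA per cell cannot be told apart. All 8 p53 KO libraries were above all 4 WT libraries for 7 genes (16.7%, against 9.25% of all genes), and below all of them for RAD51C alone (2.38%, against 9.74%).

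The promoters of 37 of the 42 genes were found in the RefSeq promoter table (build GRCh38.p14, 250 bases before to 50 after the start). RAD54B, FANCI, NBN, DNA2 and RMI2 were not matched. The windows were searched on both strands for 3 kinds of motif, and no match of one kind overlapped a match of another. An E2F-type motif was TTTGGCG, or with other middle letters TTTCGCG, or as a further form TTTCCCG. The CHR element, known from genes of late cell cycle phases, was TTTGAA, or in its other form TTCGAA. The third was the CCAAT box, with the letters of its name. E2F-type letters were in 8 of the 37 promoters (21.6%), against 7.28% of all 27305 promoters and 11.8% of those of the genes tested. They were in 3 of the 14 matched genes called higher (21.4%) and in 5 of the 22 not called (22.7%). CHR letters were in 4 of the 37 (10.8%, against 16.6% of all promoters and 11.1% of those of the genes tested), none of them called higher, and a CCAAT box was in 15 (40.5%, against 35.7% and 36.9%). The sequences, 5′ to 3′ with all matches in capitals, are the promoters of the 3 genes called higher with an E2F-type motif, of RAD54L, which had the largest rise and carries a pair of CCAAT boxes, and of RAD51C, in whose window none of these letters were found. The windows are EXO1 at chr1:241847954-241848253 (+ strand), XRCC2 at chr7:152676092-152676391 (- strand), FANCD2 at chr3:10026187-10026486 (+ strand), RAD54L at chr1:46247438-46247737 (+ strand), and RAD51C at chr17:58692323-58692622 (+ strand). In EXO1 the E2F-type match begins at base 5 after the start.
EXO1: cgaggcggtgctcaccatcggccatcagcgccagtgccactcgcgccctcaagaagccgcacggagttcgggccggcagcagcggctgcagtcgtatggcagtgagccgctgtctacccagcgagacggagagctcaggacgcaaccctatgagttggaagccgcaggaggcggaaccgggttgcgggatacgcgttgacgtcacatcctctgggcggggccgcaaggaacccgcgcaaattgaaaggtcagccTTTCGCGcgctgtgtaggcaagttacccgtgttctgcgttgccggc
XRCC2: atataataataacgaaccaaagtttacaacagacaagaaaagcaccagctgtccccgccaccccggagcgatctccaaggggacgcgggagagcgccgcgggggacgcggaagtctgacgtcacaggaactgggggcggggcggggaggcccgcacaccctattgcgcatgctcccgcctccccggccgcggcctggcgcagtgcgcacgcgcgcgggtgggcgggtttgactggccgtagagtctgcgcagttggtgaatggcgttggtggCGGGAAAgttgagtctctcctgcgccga
FANCD2: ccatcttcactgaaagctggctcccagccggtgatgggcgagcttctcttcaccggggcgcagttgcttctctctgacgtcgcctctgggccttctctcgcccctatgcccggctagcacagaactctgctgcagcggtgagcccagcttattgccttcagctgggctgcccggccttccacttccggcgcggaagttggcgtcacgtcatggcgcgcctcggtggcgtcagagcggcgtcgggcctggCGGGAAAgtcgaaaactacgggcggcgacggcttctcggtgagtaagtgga
RAD54L: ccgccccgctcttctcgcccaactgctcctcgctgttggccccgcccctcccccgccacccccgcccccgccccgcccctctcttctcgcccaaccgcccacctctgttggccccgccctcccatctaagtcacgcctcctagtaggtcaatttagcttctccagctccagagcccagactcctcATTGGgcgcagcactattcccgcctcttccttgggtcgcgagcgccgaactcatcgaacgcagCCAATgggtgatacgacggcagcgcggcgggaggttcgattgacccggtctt
RAD51C: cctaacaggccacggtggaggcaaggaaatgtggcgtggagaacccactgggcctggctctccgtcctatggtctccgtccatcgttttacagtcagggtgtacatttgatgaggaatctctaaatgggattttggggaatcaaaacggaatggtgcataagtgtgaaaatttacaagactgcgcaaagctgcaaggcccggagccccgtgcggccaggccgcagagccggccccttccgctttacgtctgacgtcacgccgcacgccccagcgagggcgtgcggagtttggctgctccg

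**Figure D1:**
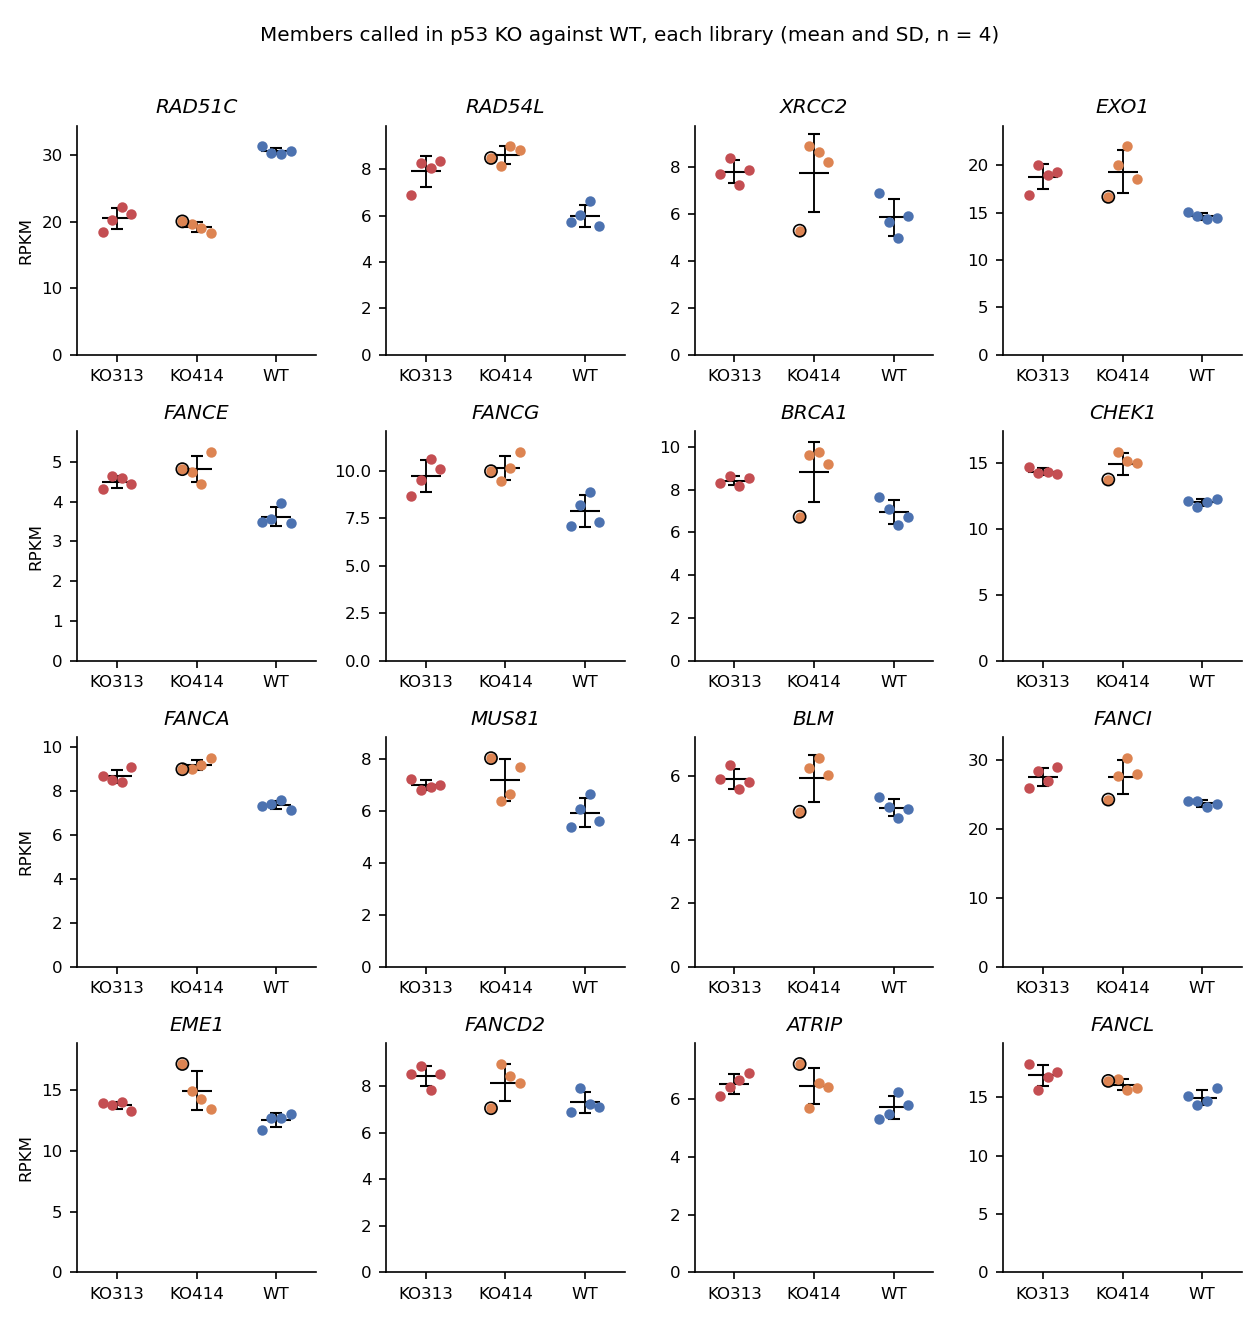
RPKM (vertical axis, from 0) of the 16 genes called in p53 KO against WT, 1 point per library, for KO313, KO414 and WT. Horizontal marks and bars are the mean and SD of 4 libraries, and the ringed point is KO414 replicate 1, which is the lowest KO414 point in BRCA1, XRCC2, BLM, EXO1, FANCD2, FANCI, CHEK1 and FANCA and the highest in EME1, MUS81, ATRIP and RAD51C. RAD51C is the 1 gene with the WT points on top, at 30.3 to 31.3 RPKM.

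RAD51B, RAD51C, RAD51D, XRCC2 and XRCC3 hold both the fall and a rise. These 5 related proteins assemble into complexes that assist strand exchange. RAD51C, which belongs to both of these complexes, had 18.5, 20.3, 22.2 and 21.1 RPKM in KO313, 20.1, 19.6, 19.1 and 18.4 RPKM in KO414, and 31.3, 30.4, 30.3 and 30.7 RPKM in WT. The lowest WT library thus lay well above the highest p53 KO library. The mean was 19.9 ± 1.31 RPKM in p53 KO cells (SD, n = 8) and 30.7 ± 0.485 RPKM in WT cells (n = 4), a ratio of 0.650, with a log2 change of -0.61 ± 0.050 (SE) and an adjusted p of 8.45e-07. Each clone showed it on its own, with log2 changes of -0.57 in KO313 (adjusted p = 9.44e-06) and -0.66 in KO414 (adjusted p = 1.84e-06), both against the same WT libraries. XRCC2, its partner in the larger complex, had 7.71, 8.399, 7.21 and 7.88 RPKM in KO313, 5.28, 8.87, 8.63 and 8.21 RPKM in KO414, and 6.87, 5.67, 4.98 and 5.89 RPKM in WT. The 7 p53 KO libraries other than KO414 replicate 1 were above all WT libraries, and that one was below 3 of them. XRCC2 averaged 7.77 ± 1.14 RPKM in p53 KO cells and 5.85 ± 0.780 RPKM in WT cells (log2 change 0.38 ± 0.115, adjusted p = 0.0258), a call that ended without WT replicate 2, 3 or 4 (adjusted p = 0.0647, 0.0910 and 0.0614). RAD51D, which sits between RAD51C and XRCC2 in that complex, averaged 4.10 ± 0.325 RPKM in p53 KO cells and 3.60 ± 0.159 RPKM in WT cells (adjusted p = 0.0630). RAD51B had 1.24 and XRCC3 6.74 RPKM on average in p53 KO cells, against 1.22 and 6.52 RPKM in WT cells, and neither was called (adjusted p = 0.882 and 0.804).

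RAD54L had the largest rise in the set. It encodes the motor protein RAD54, which remodels DNA during strand exchange. Its levels were 6.91, 8.27, 8.07 and 8.36 RPKM in KO313, 8.48, 8.13, 8.98 and 8.84 RPKM in KO414, and 5.74, 6.04, 6.62 and 5.56 RPKM in WT. The groups did not overlap, although KO313 replicate 1 and WT replicate 3 came close. The mean was 8.25 ± 0.632 RPKM in p53 KO cells and 5.99 ± 0.466 RPKM in WT cells, 1.38-fold higher (log2 change 0.43 ± 0.065, adjusted p = 0.000265). Its relative RAD54B averaged 4.85 ± 0.436 RPKM in p53 KO cells and 4.38 ± 0.510 RPKM in WT cells (adjusted p = 0.208). RAD52, which anneals complementary single strands, averaged 1.96 ± 0.158 RPKM in p53 KO cells and 2.25 ± 0.174 RPKM in WT cells (adjusted p = 0.0703).

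Of BRCA1, BARD1, PALB2 and BRCA2, which act together to start recombination at broken ends, only BRCA1 was called. Over all genes tested 15.6% were called higher. BRCA1, a ubiquitin ligase that promotes resection and recombination, had 8.32, 8.66, 8.18 and 8.53 RPKM in KO313, 6.73, 9.64, 9.75 and 9.21 RPKM in KO414, and 7.66, 7.11, 6.33 and 6.73 RPKM in WT. KO414 replicate 1 fell within the WT range and the other 7 p53 KO libraries lay above it. The mean was 8.63 ± 0.965 RPKM in p53 KO cells and 6.96 ± 0.565 RPKM in WT cells (log2 change 0.29 ± 0.084, adjusted p = 0.0202), and the call ended without WT replicate 3 or 4 (adjusted p = 0.0702 and 0.0633). BARD1, the obligate partner of BRCA1, averaged 2.81 ± 0.451 RPKM in p53 KO cells and 2.31 ± 0.323 RPKM in WT cells, a log2 change of 0.23 close to that of BRCA1 but with a wider error (SE 0.118, adjusted p = 0.171). BRCA2, which prepares resected ends for strand exchange, averaged 2.19 ± 0.494 RPKM in p53 KO cells and 1.96 ± 0.337 RPKM in WT cells (adjusted p = 0.614). PALB2, the bridge between BRCA1 and BRCA2, averaged 4.87 ± 0.434 RPKM in p53 KO cells and 5.25 ± 0.206 RPKM in WT cells (adjusted p = 0.266).

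The Fanconi core complex, the ubiquitin ligase of the pathway, had 4 of its 8 members called higher and none lower, where 15.6% of all genes tested were called higher and 14% lower. FANCE, which links the core to FANCD2, had 4.31, 4.65, 4.59 and 4.44 RPKM in KO313, 4.82, 4.74, 4.44 and 5.24 RPKM in KO414, and 3.48, 3.55, 3.97 and 3.47 RPKM in WT, with no overlap between p53 KO and WT. Its mean was 4.65 ± 0.292 RPKM in p53 KO cells and 3.62 ± 0.241 RPKM in WT cells (log2 change 0.32 ± 0.056, adjusted p = 0.000728). FANCA, a scaffold of the core, had 8.69, 8.50, 8.42 and 9.10 RPKM in KO313, 9.003, 9.03, 9.18 and 9.51 RPKM in KO414, and 7.31, 7.42, 7.62 and 7.15 RPKM in WT. These groups were also fully apart, with a mean of 8.93 ± 0.367 RPKM in p53 KO cells and 7.38 ± 0.195 RPKM in WT cells (log2 change 0.26 ± 0.042, adjusted p = 0.000469). FANCG, which binds FANCA, had 8.65, 9.49, 10.6 and 10.1 RPKM in KO313, 9.97, 9.43, 10.2 and 10.97 RPKM in KO414, and 7.07, 8.20, 8.88 and 7.33 RPKM in WT. Only WT replicate 3 reached into the p53 KO range, and the means were 9.93 ± 0.732 RPKM in p53 KO cells and 7.87 ± 0.832 RPKM in WT cells (log2 change 0.32 ± 0.069, adjusted p = 0.00357). FANCL, the catalytic subunit, had 17.8, 15.6, 16.7 and 17.2 RPKM in KO313, 16.4, 16.5, 15.6 and 15.8 RPKM in KO414, and 15.1, 14.3, 14.6 and 15.8 RPKM in WT. The ranges overlapped at WT replicate 4, the log2 change was 0.14 ± 0.045 (adjusted p = 0.0380), and the call held in 12 of 23 alternative settings. FANCB, FANCC, FANCF and FANCM were not called (adjusted p = 0.456, 0.290, 0.95 and 0.114). FANCF, an adaptor of the core, had nearly equal means of 3.65 ± 0.388 RPKM in p53 KO cells and 3.67 ± 0.419 RPKM in WT cells.

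Both subunits of the clamp that the core modifies were called higher, where 15.6% of all genes tested were. FANCI had the highest mean RPKM of the set over the 12 libraries, although RAD51C was higher in WT, with FANCI at 25.8, 28.3, 26.9 and 28.9 RPKM in KO313, 24.2, 27.6, 30.2 and 27.9 RPKM in KO414, and 23.9, 24.0, 23.1 and 23.5 RPKM in WT. Even its lowest p53 KO library, KO414 replicate 1, was just above the highest WT library. The mean was 27.5 ± 1.85 RPKM in p53 KO cells and 23.6 ± 0.447 RPKM in WT cells (log2 change 0.21 ± 0.052, adjusted p = 0.00835). FANCD2 had 8.51, 8.89, 7.86 and 8.54 RPKM in KO313, 7.06, 8.96, 8.44 and 8.15 RPKM in KO414, and 6.92, 7.94, 7.24 and 7.13 RPKM in WT. Its groups overlapped, and with a log2 change of 0.17 ± 0.061 it was called at the edge of the threshold (adjusted p = 0.0498), a call that held in 9 of 23 alternative settings. BRIP1, a helicase that binds BRCA1, averaged 4.52 ± 0.557 RPKM in p53 KO cells and 4.73 ± 0.332 RPKM in WT cells (adjusted p = 0.623).

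**Figure D2:**
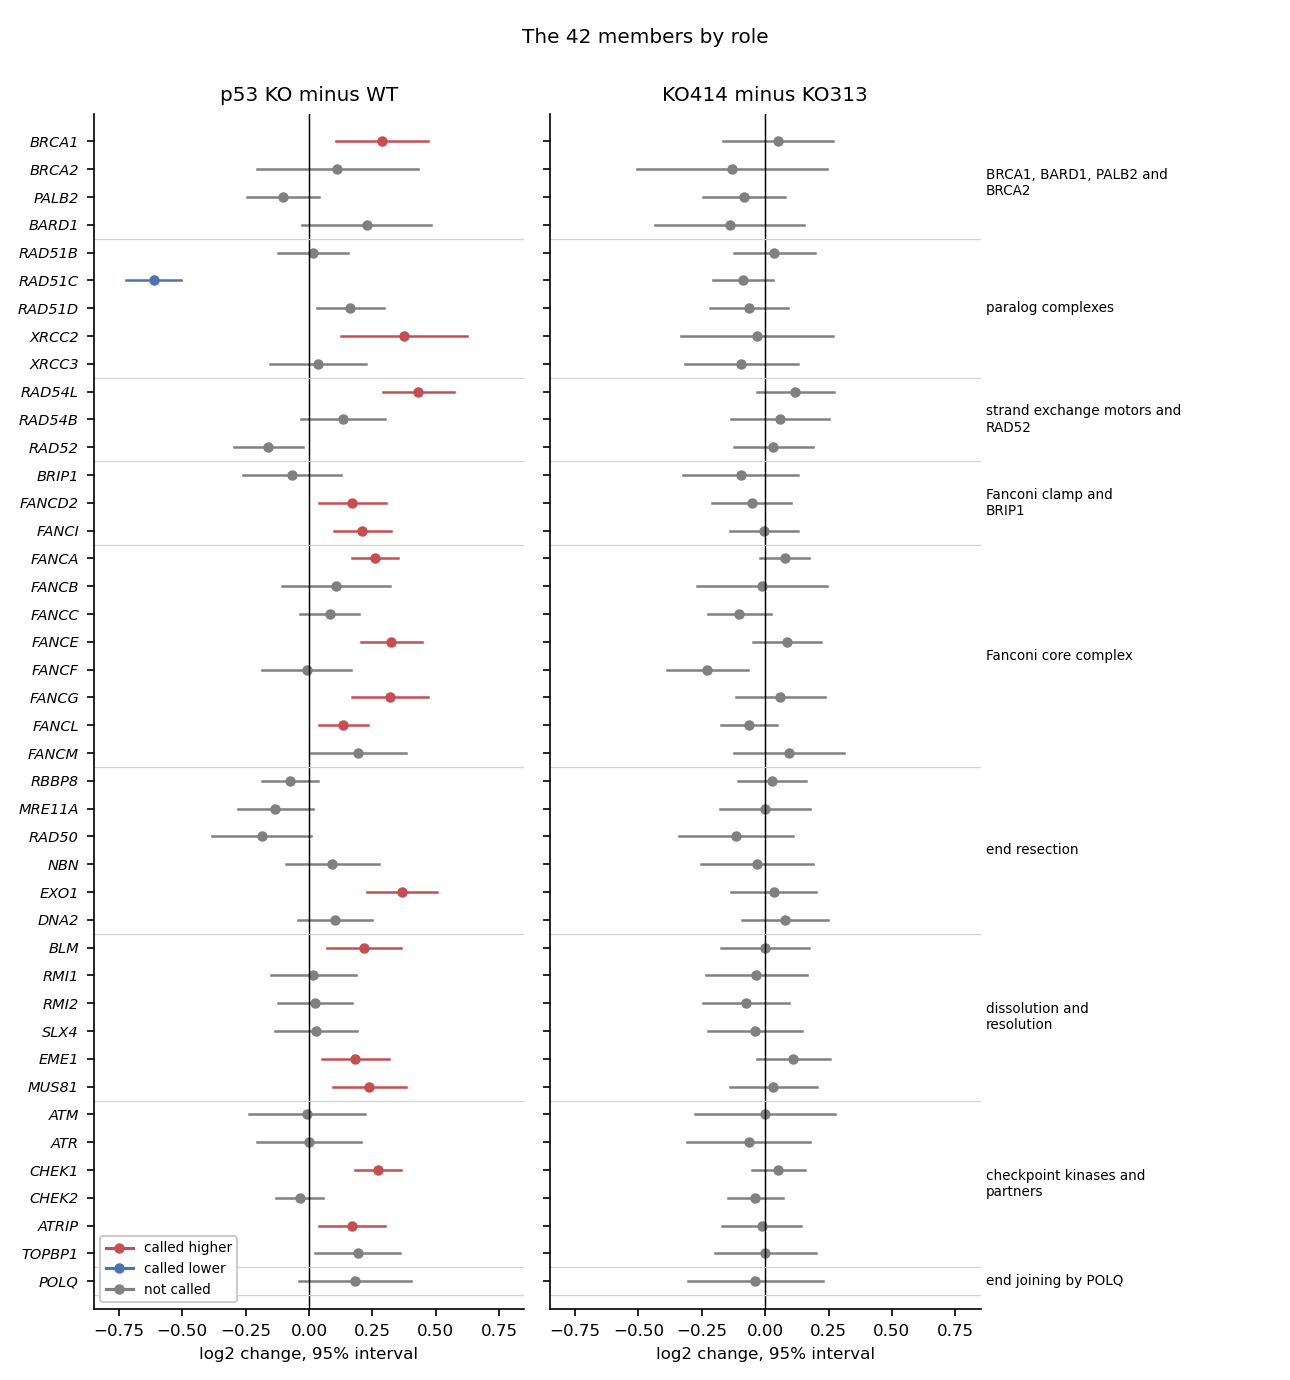
Log2 change with its 95% interval (horizontal axis) of each of the 42 genes, grouped by role from top to bottom, for p53 KO minus WT (left panel) and KO414 minus KO313 (right panel). Red and blue mark genes called higher and lower and grey those not called. On the left RAD51C stands alone at -0.61, and on the right no gene is coloured and only the interval of FANCF leaves out 0.

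Of the 6 genes that cut back broken ends, 1 was called higher, where 15.6% of all genes tested were. EXO1, an exonuclease that resects far from the break, had 16.9, 20.0, 18.97 and 19.3 RPKM in KO313, 16.7, 20.0, 21.97 and 18.6 RPKM in KO414, and 15.1, 14.6, 14.3 and 14.4 RPKM in WT, and the groups did not overlap. Its mean was 19.1 ± 1.74 RPKM in p53 KO cells and 14.6 ± 0.356 RPKM in WT cells (log2 change 0.37 ± 0.065, adjusted p = 0.000863). The nuclease DNA2, which acts in parallel with EXO1, averaged 5.61 ± 0.518 RPKM in p53 KO cells and 5.18 ± 0.303 RPKM in WT cells (adjusted p = 0.291). The genes of the MRN complex, which binds ends first, and of its cofactor RBBP8 (CtIP) were not called. RAD50 averaged 16.4 ± 1.97 RPKM in p53 KO cells and 18.7 ± 1.54 RPKM in WT cells (log2 change -0.19 ± 0.091, adjusted p = 0.146). MRE11A, the nuclease of the complex, averaged 5.95 ± 0.419 RPKM in p53 KO cells and 6.59 ± 0.726 RPKM in WT cells (adjusted p = 0.166). NBN had a mean of 15.5 RPKM in p53 KO cells and 14.5 RPKM in WT cells (adjusted p = 0.452), and RBBP8 one of 18.6 RPKM in p53 KO cells and 19.7 RPKM in WT cells (adjusted p = 0.310).

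Joined molecules are dissolved by BLM with RMI1 and RMI2, or cut by the nuclease MUS81-EME1 on the platform protein SLX4. BLM, a helicase, had 5.90, 6.37, 5.59 and 5.81 RPKM in KO313, 4.88, 6.27, 6.57 and 6.04 RPKM in KO414, and 5.35, 5.04, 4.68 and 4.98 RPKM in WT. KO414 replicate 1 was again the only p53 KO library within the WT range. The log2 change was 0.22 ± 0.068 (adjusted p = 0.0267), and it was not called without WT replicate 2, 3 or 4 (adjusted p = 0.0580, 0.0853 and 0.0699). MUS81, the catalytic subunit, had 7.25, 6.80, 6.93 and 6.99 RPKM in KO313, 8.03, 6.39, 6.64 and 7.69 RPKM in KO414, and 5.40, 6.08, 6.65 and 5.63 RPKM in WT. Here KO414 replicate 1 was the highest library, the log2 change was 0.24 ± 0.066 (adjusted p = 0.0157), and the call ended without WT replicate 1 or 4 (adjusted p = 0.0668 and 0.0609). EME1, its partner, had 13.9, 13.8, 14.01 and 13.3 RPKM in KO313, 17.2, 14.9, 14.3 and 13.5 RPKM in KO414, and 11.7, 12.7, 12.7 and 13.1 RPKM in WT. The groups were apart by a narrow gap, with a log2 change of 0.18 ± 0.061 (adjusted p = 0.0381) and a call in 14 of 23 alternative settings. RMI1, RMI2 and SLX4 had log2 changes of 0.02, 0.02 and 0.03 and were not called (adjusted p = 0.892, 0.830 and 0.818). SLX4 had the lowest mean RPKM of the set, on the authors' gene lengths, at 1.04 ± 0.121 RPKM in p53 KO cells and 1.01 ± 0.116 RPKM in WT cells.

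Of the 6 checkpoint genes 2 were called higher, both in the ATR branch, where 15.6% of all genes tested were. CHEK1, the kinase that ATR activates, had 14.7, 14.2, 14.3 and 14.1 RPKM in KO313, 13.7, 15.8, 15.1 and 14.95 RPKM in KO414, and 12.1, 11.6, 12.01 and 12.2 RPKM in WT, with all p53 KO libraries above all WT libraries. Its mean was 14.6 ± 0.662 RPKM in p53 KO cells and 11.99 ± 0.254 RPKM in WT cells (log2 change 0.27 ± 0.042, adjusted p = 0.000305). ATRIP, the subunit that brings ATR to single-stranded DNA, had 6.10, 6.41, 6.66 and 6.89 RPKM in KO313, 7.21, 5.70, 6.54 and 6.41 RPKM in KO414, and 5.33, 5.48, 6.25 and 5.79 RPKM in WT. The groups overlapped, the log2 change of 0.17 ± 0.061 lay at the threshold (adjusted p = 0.0498), and the call held in 7 of 23 alternative settings. ATR itself had nearly equal means, 5.38 ± 0.704 RPKM in p53 KO cells and 5.34 ± 0.307 RPKM in WT cells (adjusted p = 0.999). TOPBP1, an activator of ATR, averaged 12.9 ± 1.34 RPKM in p53 KO cells and 11.2 ± 0.616 RPKM in WT cells (adjusted p = 0.0790). In the other branch ATM averaged 2.42 ± 0.389 RPKM in p53 KO cells and 2.42 ± 0.263 RPKM in WT cells, and CHEK2 averaged 6.03 ± 0.255 RPKM in p53 KO cells and 6.19 ± 0.125 RPKM in WT cells (adjusted p = 0.966 and 0.564). POLQ, the polymerase of an end joining pathway that competes with recombination, averaged 3.81 ± 0.559 RPKM in p53 KO cells and 3.27 ± 0.204 RPKM in WT cells (adjusted p = 0.210).

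The clones were then each set against WT and against each other, in a model of 3 groups with a common estimate of the spread. In KO313, 8 of the 42 genes were called higher (10.8% of all genes tested were) and RAD51C lower (2.38%, against 10.7%). In KO414, 10 were called higher (23.8%, against 15.2%) and RAD51C lower (2.38%, against 14.6%). BRCA1, EME1 and MUS81 were called in KO414 only and FANCL in KO313 only. XRCC2, BLM, FANCD2 and ATRIP, called with the clones combined, were called in neither clone. The comparisons share their WT libraries. Between KO414 and KO313 none of the 42 genes was called by limma, against 3.36% of all genes tested, and 1 gene had an unadjusted p under 0.05 (11.5% of all genes did). This was FANCF, singled out here after its values were seen. FANCF had 3.29, 3.18, 3.24 and 3.57 RPKM in KO414 and 4.10, 3.68, 4.05 and 4.07 RPKM in KO313, with no overlap (4.77% of all genes were lower in this way), and a log2 difference of -0.23 (95% interval -0.39 to -0.07, adjusted p = 0.152). The 95% intervals of all 42 differences lay between -0.51 and 0.31 on the log2(RPKM + 0.5) scale. Each interval holds for its gene taken singly, so that range is no joint bound on the 42 genes. The intervals do not show that the clones are alike. RAD51C differed by -0.09 (95% interval -0.21 to 0.03) and RAD54L by 0.12 (-0.03 to 0.27).

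KO414 replicate 1 was the lowest of the 4 KO414 libraries in 29 of the 42 genes, with a median deviation from the KO414 mean of -0.18 on the log2 scale, and the lowest in all 18 of the genes with a length of at least 6665 bases, the length at which the longest 25% of genes tested begin. The median deviation was -0.27 for those 18 genes and -0.03 for the 24 shorter ones. Gene length was related to the deviation in this library across all genes tested too, with Spearman's rho of -0.567 over 12215 genes, which are not independent, and median deviations of 0.14 in the shortest 25% and -0.21 in the longest 25% of genes. WT replicate 3 was the lowest WT library in 25 of the 42 genes, and in 14 of the 18 long ones, with rho of -0.349. KO313 replicate 3 was the lowest KO313 library in 12 of the 18 long genes, with rho of -0.443 over all genes, and the other libraries ranged between -0.211 in WT replicate 4 and 0.478 in KO414 replicate 2. The relation to length was thus present in both directions among the libraries, and the longest 25% of genes deviated most in KO414 replicate 1. BRCA2 and ATM, which have the longest lengths, had 1.21 and 1.64 RPKM in KO414 replicate 1, against 2.11 RPKM or more for BRCA2 and 2.54 RPKM or more for ATM in the other KO414 libraries.

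**Figure D3:**
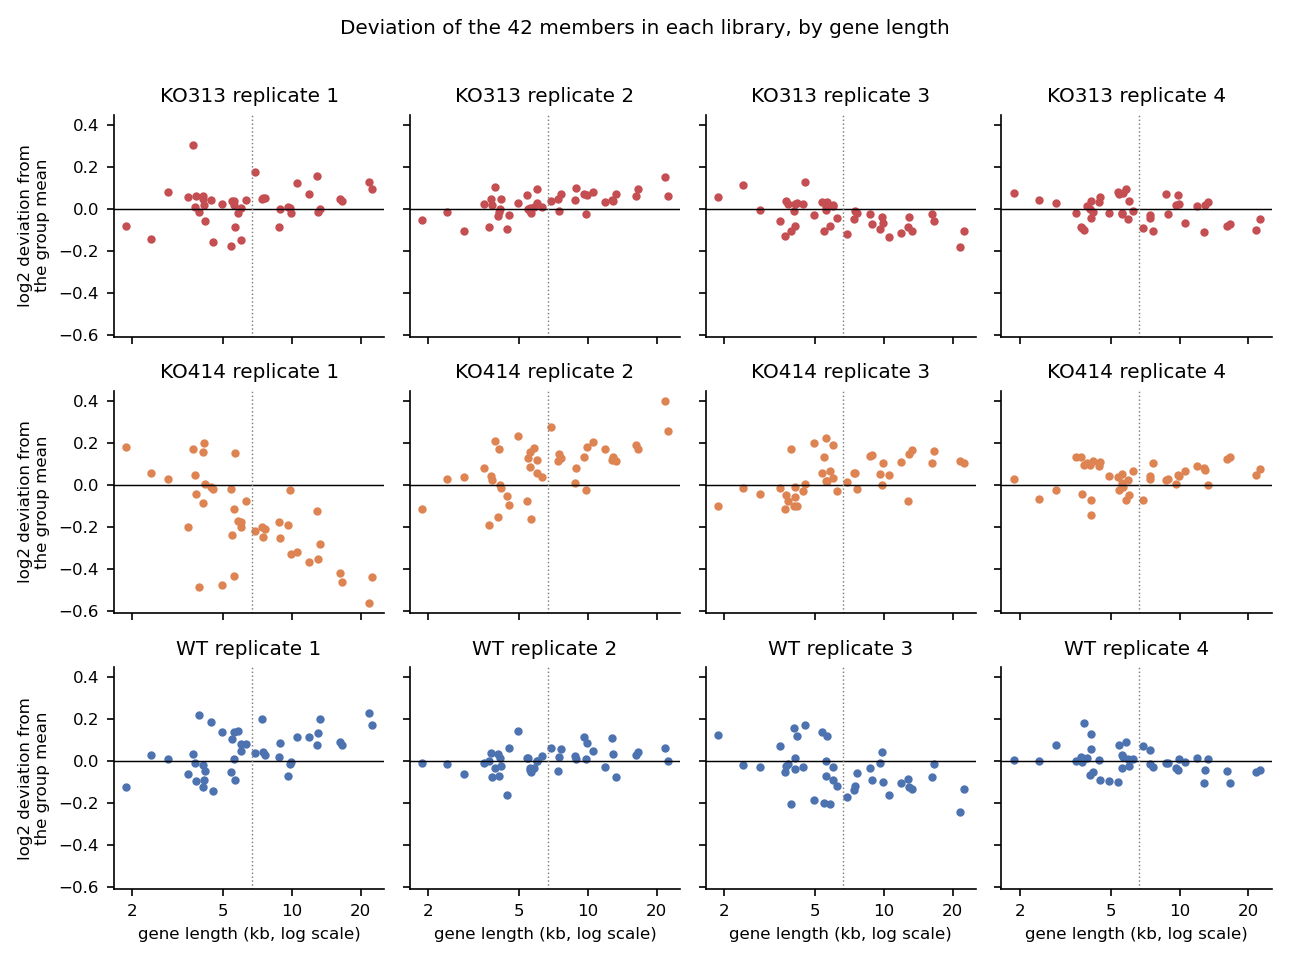
Deviation of each of the 42 genes from its group mean on the log2(RPKM + 0.5) scale (vertical axis) by gene length in kb (horizontal axis, log scale), 1 panel per library, with KO313 and KO414 above WT. The dotted line is at 6665 bases. In KO414 replicate 1 the points slope down with length, and all 18 genes right of the line are below 0.

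Without KO414 replicate 1, 20 genes were called higher in p53 KO cells (19.8% of all genes then tested), of which 14 were among the 15 and BARD1, FANCB, FANCM, POLQ, RAD51D and TOPBP1 were added. POLQ then had a log2 change of 0.25 (adjusted p = 0.00393), TOPBP1 of 0.24 (adjusted p = 0.00323) and BARD1 of 0.31 (adjusted p = 0.00409). The count became 18 in KO313 (16.3% of all genes) and 20 in KO414 (20.8%). For KO313 no KO313 or WT library was left out, but the estimate of the spread is common to all groups. Without both KO414 replicate 1 and WT replicate 3, it was 18 in p53 KO cells (17.8%). With a correction for gene length in each library, 17 genes were called higher (17.4%) and 5 lower (18% of all genes), with the additions RAD50, MRE11A, PALB2 and RAD52. RAD50 and MRE11A, which encode subunits of the MRN complex, then had log2 changes of -0.21 (adjusted p = 0.00313) and -0.16 (adjusted p = 0.0134). These settings were chosen after the data were seen, apart from leaving out each single library. RAD51C, RAD54L, FANCA, FANCE, FANCG, FANCI, EXO1 and CHEK1 were called in p53 KO cells under all 23 alternatives.

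Some of these genes share exon sequence with a neighbour. In the GENCODE v29 annotation 26 of the 42 have exon bases in common with another gene, and 11 share at least 10% of theirs. The use of strand in counting is not given in the sources used here, so reads in these parts cannot be assigned with certainty. Among the genes called, ATRIP shares 27.9% with TREX1 on the same strand. On the opposite strand RAD54L shares 25.1% with LRRC41, FANCA 23.6% with ZNF276, FANCL 18.7% with VRK2, EME1 16.4% with LRRC59 and MUS81 13.9% with CFL1. ZNF276 was itself higher (7.18 ± 0.605 RPKM in p53 KO cells and 6.04 ± 0.136 RPKM in WT cells, log2 change 0.23, adjusted p = 0.0121), as was TREX1 (log2 change 0.28, adjusted p = 0.0227). LRRC59 and CFL1, at 139 and 444 RPKM in p53 KO cells and 123 and 381 RPKM in WT cells, are far more abundant than EME1 and MUS81 and were also higher (log2 changes 0.18 and 0.22, adjusted p = 0.00245 and 0.0233). LRRC41 and VRK2 were not called (log2 changes 0.12 and 0.04, adjusted p = 0.0681 and 0.639). FANCI shares 5.9% with POLG on the opposite strand, which was also higher (log2 change 0.18, adjusted p = 0.0229). The part of these neighbours in the values of ATRIP, RAD54L, FANCA, FANCL, EME1, MUS81 and FANCI was not tested. RAD51C, EXO1, XRCC2, FANCE, FANCG and BLM share no exon bases with another annotated gene, and CHEK1 shares 1.2%.

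Other genes of recombination, crosslink repair and checkpoint signalling were counted in the same way. Of 66 listed, 59 were tested, with 17 called higher, 3 lower and a median log2 change of 0.08, where 15.6% of all genes tested were called higher and 14% lower. CDC25A, the phosphatase that CHEK1 marks for destruction, averaged 26.0 ± 1.85 RPKM in p53 KO cells and 17.6 ± 0.426 RPKM in WT cells (log2 change 0.55, adjusted p = 6.37e-06). ERCC1, a partner of the crosslink nuclease ERCC4, and PSMC3IP, a cofactor of strand exchange, had log2 changes of 0.35 and 0.28 (adjusted p = 1.87e-05 and 0.000790). The genes called lower were ETAA1, an activator of ATR, SHFM1, a small partner of BRCA2, and UIMC1, of the BRCA1-A complex (log2 changes -0.32, -0.30 and -0.13, adjusted p = 0.00283, 0.0129 and 0.0246).

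**Figure D4:**
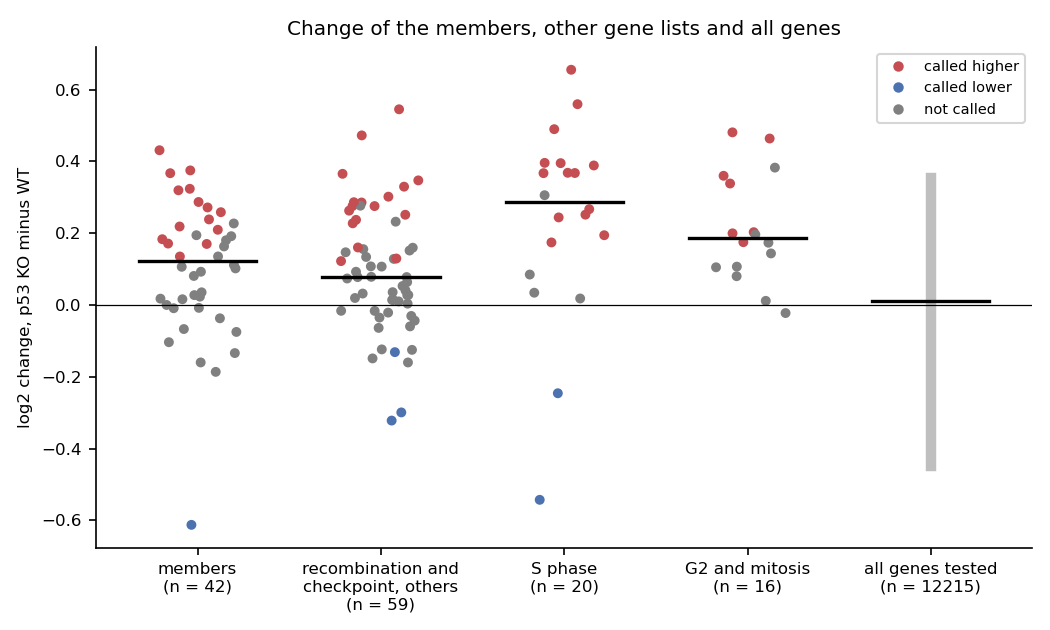
Log2 change of p53 KO minus WT (vertical axis) for each gene of the set, of the other recombination and checkpoint genes, and of the S phase and G2 and mitosis lists, with the median as a black line. For all 12215 genes tested the grey bar spans the 5th to 95th percentile, -0.45 to 0.35. The medians are 0.12, 0.08, 0.29 and 0.19 for the lists and 0.01 for all genes.

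Genes of cell division were counted as well. Of 20 S phase genes 14 were called higher and 2, PCNA and TYMS, lower, with a median log2 change of 0.29. Of 16 G2 and mitosis genes 7 were called higher and none lower, with a median of 0.19, against 0.12 in the 42 genes. Among all genes tested, 15.6% were called higher and 14% lower. Of the 36 cell division genes 13 were not called. The part of the cell cycle in the changes of the set was not tested. In KO414 replicate 1 the median deviation of the cell division genes was -0.004, against -0.18 for the 42 genes. It was 0.027 in the S phase list and -0.047 in the G2 and mitosis list. The lists were not matched for gene length, and what set this library apart was not tested.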

How the data were processed

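RNA-seq was measured in 12 libraries, and groups came from the sample titles. The authors deposited 1 table of RPKM values, made per the labels with a kit for mRNA, while the study's methods describe ribosomal RNA removal, so whether poly(A) RNA was selected is uncertain. The submitters' notes name Trimmomatic and hg19, and of aligner, counter and strandedness each is not given in the sources used here. All RPKM values were whole numbers divided by a length and a total for 100% of 18698 genes (tolerance 1e-06). The totals differed by only 0.123% (39294810 to 39343011), so the numbers seem to have been brought to a common total before deposit. How this was done is not known. They were not taken as read counts, and limma-voom on these whole numbers served only as an alternative. For the 42 genes these whole numbers were 165 to 10374 per library. Lengths behind the RPKM exceeded the GENCODE v29 exon length in 28 of the 42 genes, so levels of different genes compare only on the authors' lengths. The 4 repeated entries with dates for symbols were left out.

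The filter kept genes reaching an RPKM of 0.5 in 4 or more libraries, and these were tested on log2(RPKM + 0.5), which understates changes of low genes, with limma 3.58.1 and an intensity trend in R 4.3.3, two-sided, with Benjamini-Hochberg adjustment over 12215 genes. As in the study's design, 8 p53 KO libraries were compared with 4 WT libraries, although they come from 2 clones, and p-values measure the spread between libraries. Clones were compared in a model of 3 groups with a common estimate of the spread. Folds beside means are ratios of mean RPKM. The genes given with values in every library were those called in p53 KO against WT (up to 16 with the largest log2 changes, here all of them) and up to 6 called between the clones. Of the other recombination genes, up to 4 per direction with the smallest p were named, and the results of some genes are not reported here. Alternatives changed the pseudocount, filter, trend, scaling, tool and block, left out each library, and, chosen after seeing the data, corrected for gene length or left out a pair of libraries. Members and lists were chosen with earlier results of these data known. Summaries used Python 3.11.15 (pandas 2.3.3, numpy 2.4.6) and figures matplotlib 3.10.9.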

Additional observations from a re-analysis of the deposited data

Results flagged for a closer look

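In 5 of 126 groups of 4 libraries (42 genes in 3 groups), 1 library lay far from the other 3 by Dixon's criterion, and chance gives about 1 in 20. XRCC3 was at 8.67 RPKM in KO313 replicate 1, against 6.30 to 6.49 RPKM in the other KO313 libraries. FANCF was at 3.68 RPKM in KO313 replicate 2, against 4.05 to 4.10 RPKM. ATR was at 3.76 RPKM in KO414 replicate 1, against 5.63 to 6.01 RPKM, and POLQ was at 2.56 RPKM in the same library, against 4.11 to 4.24 RPKM. NBN was at 12.7 RPKM in WT replicate 3, against 14.8 to 15.2 RPKM. The last 3 lie in the libraries where long genes were low.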

How the results depend on the processing

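Of 23 alternatives, 9 changed the pseudocount, filter, scaling, trend, tool or block, 12 left out a library, and 2 were chosen after seeing the data. None reversed a called gene, and 8 of the 16 genes called in p53 KO against WT were called under all. Leaving out 1 library gave 8 to 20 genes higher and 1 to 2 lower in p53 KO (15 and 1 with all), 5 to 18 higher in KO313 (8 with all), 7 to 20 higher and 1 to 3 lower in KO414 (10 and 1 with all), and 11 to 23 of the other recombination genes higher (17 with all). The lowest counts in p53 KO came without WT replicate 3 (9) and WT replicate 4 (8). Of all genes, 13.4% and 10.9% were then higher, against 15.6% with all libraries. The highest counts came without KO414 replicate 1, in p53 KO (20, with 19.8% of all genes), KO313 (18, with 16.3%) and KO414 (20, with 20.8%). RAD52 was called lower in p53 KO, and RAD50 and RAD52 in KO414, without KO414 replicate 2. In KO313 the count fell to 5 without KO313 replicate 3 or 4, and the other recombination genes to 11 without WT replicate 2. Without both KO414 replicate 1 and WT replicate 3, 2 genes were lower in p53 KO (14.5% of all genes). Under that setting 18 were higher in KO313 (15.5%) and 20 in KO414 (19.1%). With the length correction 5, 3 and 4 genes were lower in p53 KO, KO313 and KO414. Of all genes, 18%, 14.4% and 18.6% were then lower. Libraries with the same replicate number correlated at -0.193 to 0.514, over 0.1 in 6 of 12 pairs. Those with different numbers correlated at -0.506 to 0.211, and 8 of 12 libraries correlated best with their own number. The main model did not pair the libraries by number, and whether the numbers mark batches was not tested. With the replicate block 13 genes were higher in p53 KO, 9 in KO313 and 9 in KO414 (15, 8 and 10 without it). The share of all genes called with the block is not reported here. Scaling alternatives shifted no group by over 0.01 on the log2 scale. Median ratio scaling moved KO313 by -0.0068 and KO414 by -0.006, and WT by 0.0052 in the other direction. With it 11 genes were higher in p53 KO, and ATRIP, EME1, FANCD2 and FANCL were no longer called. Quantile normalization gave 14. The shares of all genes called under these scalings are not reported here.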
